A study of Caenorhabditis elegans with 2 samples.

Results

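The 4 genes elt-1, elt-3, egl-18 and elt-6 encode GATA-type zinc-finger transcription factors of the epidermis of Caenorhabditis elegans, and were followed here through the regions that ELT-3 chromatin immunoprecipitation recovered at their own loci. They were taken by name from the 19973 annotated protein-coding genes, and a locus ran from 10 kb upstream of the 5' end to 2 kb past the 3' end, introns included. Regions were assigned to a locus by the summit, the base at which the submitters' peak caller placed the maximum. Over the 4 loci there were 5 distinct regions of the 2940 in the thresholded list, 44 of the 30000 in the pooled list, 42 of the 30000 in the list of replicate 1 and 37 of the 24854 in the list of replicate 3.

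The series holds ChIP-seq of ELT-3 in whole L1 larvae of mixed sex in 2 libraries, which the labels number as biological replicates 1 and 3, and there is no other genotype, stage or treatment. All larvae were of strain OP75, genotype unc-119(ed3) III; wgIs75, in which a transgene gives stable expression of ELT-3 with a GFP-FLAG tag at its C-terminus, per a note on replicate 3. The antibody field names elt-3 while the description names eGFP-elt-3, the sources used here give neither the promoter nor the copy number of the transgene, and reads from the transgene and from the native elt-3 gene cannot be told apart in lists of regions. The libraries also differed in the worm source (Snyder laboratory for replicate 3, CGC for replicate 1) and in the fragmentation record, which is microtip sonication for replicate 3 and a size range of 150 to 350 for replicate 1, so library and handling cannot be told apart. The lists give intervals, a signal and a q-value per region but no counts of reads, which leaves library depth unknown. The signal says how strong the peak caller found a region to be, on a scale that differs between lists, so a rank (1 for the highest signal of a list) is given for comparisons between lists. With 1 group and no other condition nothing could be tested against a control group, and no p-value is given: shares over all coding genes, with loci cut by the same rule, stand beside the values of the 4 genes.

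GATA factors bind DNA at the sequence WGATAR, which stands for AGATAA or AGATAG or TGATAA or TGATAG read on either strand. In the worm, elt-1 sets epidermal fate in the embryo and acts before the others. elt-3 is expressed in the differentiating epidermis outside the seam cells, the lateral stem-like cells of the skin, and its product is known for activating genes of the cuticle. egl-18 and elt-6 are neighbouring genes that keep seam cells in the seam fate, downstream of Wnt signalling in the larva.

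All 4 genes lie on the + strand of WBcel235, the assembly that browsers call ce11. elt-1 (WBGene00001249) occupies chrIV:9614995-9620280 and its locus spans 17.3 kb. elt-3 (WBGene00001251) occupies chrX:13934874-13941216 with a locus of 18.3 kb. egl-18 (WBGene00001186) occupies chrIV:1902322-1917840 with a locus of 27.5 kb. elt-6 (WBGene00001253) occupies chrIV:1917977-1921643 with a locus of 15.7 kb, and it starts 136 bp past the end of egl-18, so that the loci of these neighbours share 11.9 kb and regions there count for both.

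The sequences below are a selection from the loci of elt-3, egl-18 and elt-1, and none is shown for elt-6. They show a summit with 50 bases to each side, from the NCBI RefSeq copy of WBcel235, on the + strand and so in the direction of the genes, with WGATAR sites in capitals (TTATCA is TGATAA on the other strand, and CTATCA and TTATCT are TGATAG and AGATAA). The numbers in the names are distances of the summit from the 5' end of the gene in bp. The elt-3 set holds its 5 thresholded peaks and the replicate 3 summit upstream of elt-3 with the most sites. The egl-18 and elt-1 sets hold pooled candidates described under those genes that had a WGATAR site in the window. Such a site stood in 3 of 12 pooled windows at egl-18 and 3 of 6 at elt-1.
elt-3 +2008, intron (chrX:13936832-13936932, + strand): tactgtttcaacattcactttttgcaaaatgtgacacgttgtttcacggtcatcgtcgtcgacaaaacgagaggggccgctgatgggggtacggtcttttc
elt-3 +2671, intron (chrX:13937495-13937595, + strand): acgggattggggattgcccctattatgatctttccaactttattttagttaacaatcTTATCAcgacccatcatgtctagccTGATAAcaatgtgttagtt
elt-3 +3258, intron (chrX:13938082-13938182, + strand): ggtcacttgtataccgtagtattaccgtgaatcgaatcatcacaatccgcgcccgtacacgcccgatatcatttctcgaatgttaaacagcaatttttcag
elt-3 +4676, intron (chrX:13939500-13939600, + strand): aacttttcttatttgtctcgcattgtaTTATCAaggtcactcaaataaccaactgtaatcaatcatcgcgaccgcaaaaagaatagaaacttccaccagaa
elt-3 +6557, past the 3' end (chrX:13941381-13941481, + strand): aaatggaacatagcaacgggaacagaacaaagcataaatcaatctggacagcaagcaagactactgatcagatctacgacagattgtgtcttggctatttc
elt-3 -4844, replicate 3 (chrX:13929980-13930080, + strand): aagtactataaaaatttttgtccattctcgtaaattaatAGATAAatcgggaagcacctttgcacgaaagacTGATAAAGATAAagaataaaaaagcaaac
egl-18 -1096, intergenic (chrIV:1901176-1901276, + strand): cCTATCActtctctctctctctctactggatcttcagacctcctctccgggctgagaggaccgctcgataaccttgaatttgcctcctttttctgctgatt
egl-18 +2156, intron (chrIV:1904428-1904528, + strand): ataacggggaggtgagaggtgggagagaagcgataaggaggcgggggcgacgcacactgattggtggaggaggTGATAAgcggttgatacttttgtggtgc
elt-1 -780, intergenic (chrIV:9614165-9614265, + strand): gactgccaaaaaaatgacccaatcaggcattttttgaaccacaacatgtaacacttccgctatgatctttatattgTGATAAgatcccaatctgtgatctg
elt-1 +596, intron (chrIV:9615541-9615641, + strand): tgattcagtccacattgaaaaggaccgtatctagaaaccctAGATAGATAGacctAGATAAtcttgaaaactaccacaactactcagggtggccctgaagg

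ELT-3 regions past the submitters' threshold were found at 1 of the 4 genes, elt-3 itself. Its locus held 5 thresholded summits, and the loci of elt-1, egl-18 and elt-6 held 0 each. Over all coding genes, 32.8% had at least 1 thresholded summit in a locus cut by the same rule and 0.391% had 5 or more. A gene without one was therefore the common case, and 0 at elt-1, egl-18 and elt-6 says that no region there passed the threshold, not that ELT-3 was absent. Counting only peaks that overlapped a region of each replicate left 3 at elt-3 and 0 at the others, against 21.7% of coding genes with at least 1. Among the 2940 strongest regions of replicate 1 alone, 5 lay at elt-3 and 0 at each of the others, and 32.6% of coding genes had at least 1. Among the 2940 strongest of replicate 3 alone, 9 lay at elt-3, 1 at elt-1 and 0 at egl-18 and elt-6. There 33.0% of coding genes had at least 1 and 0.0150%, 3 genes with elt-3 among them, had 9 or more.

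Candidate regions, which the pooled and replicate lists hold down to low signal, were also most numerous at elt-3. In the pooled list elt-3 had 25, egl-18 12, elt-1 6 and elt-6 3. Replicate 1 gave 24, 12, 4 and 6 in the same order of genes and replicate 3 gave 24, 9, 4 and 4. The libraries thus differed at elt-6, where the pooled 3 became 6 in replicate 1 and 4 in replicate 3. Per 10 kb of locus the pooled list gave 13.6 regions at elt-3, 4.36 at egl-18, 3.47 at elt-1 and 1.91 at elt-6, beside a median of 2.41 over coding genes. A pooled density at least as high was found at 0.0601% of coding genes for elt-3, 24.1% for egl-18, 34.9% for elt-1 and 59.8% for elt-6. In replicate 3 no other coding gene reached the elt-3 density of 13.1 per 10 kb (0.00501% of genes, which is elt-3), and in replicate 1 0.105% did. The elt-3 locus was the one of the 4 that stood far from the median, while the other 3 densities were each equalled or passed at 24.1% or more of coding genes. Overlapping pooled regions merged into 1 left 18 at elt-3, 10 at egl-18, 6 at elt-1 and 3 at elt-6. Pooled regions covered 40.8% of the elt-3 locus, 14.3% of that of egl-18, 12.1% of that of elt-1 and 6.70% of that of elt-6, against 10.1% of the nuclear genome.

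**Figure D1:**
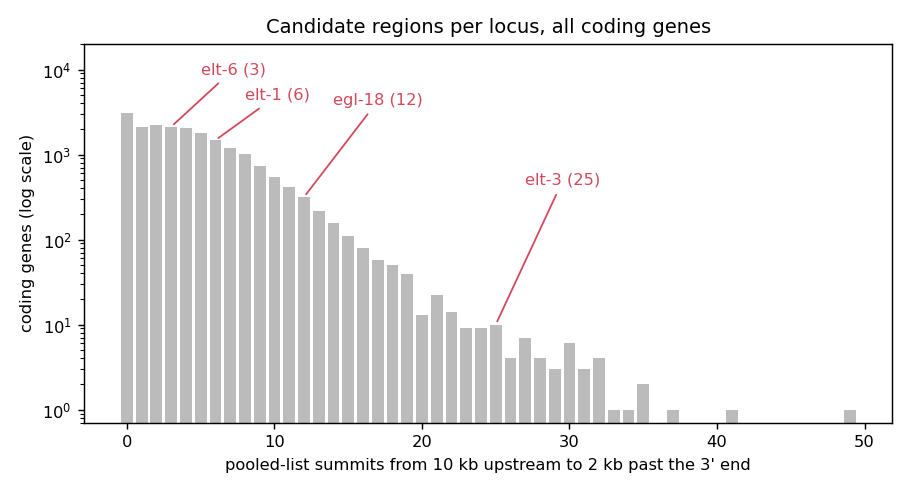
Number of coding genes (y axis, log scale) by the number of pooled-list summits in the locus (x axis, count), with the 4 GATA genes marked. As many or more are found at 62.5% of genes for elt-6 with 3, 32.6% for elt-1 with 6, 5.70% for egl-18 with 12 and 0.240% for elt-3 with 25; the egl-18 locus is the longest of the 4.

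**Figure D2:**
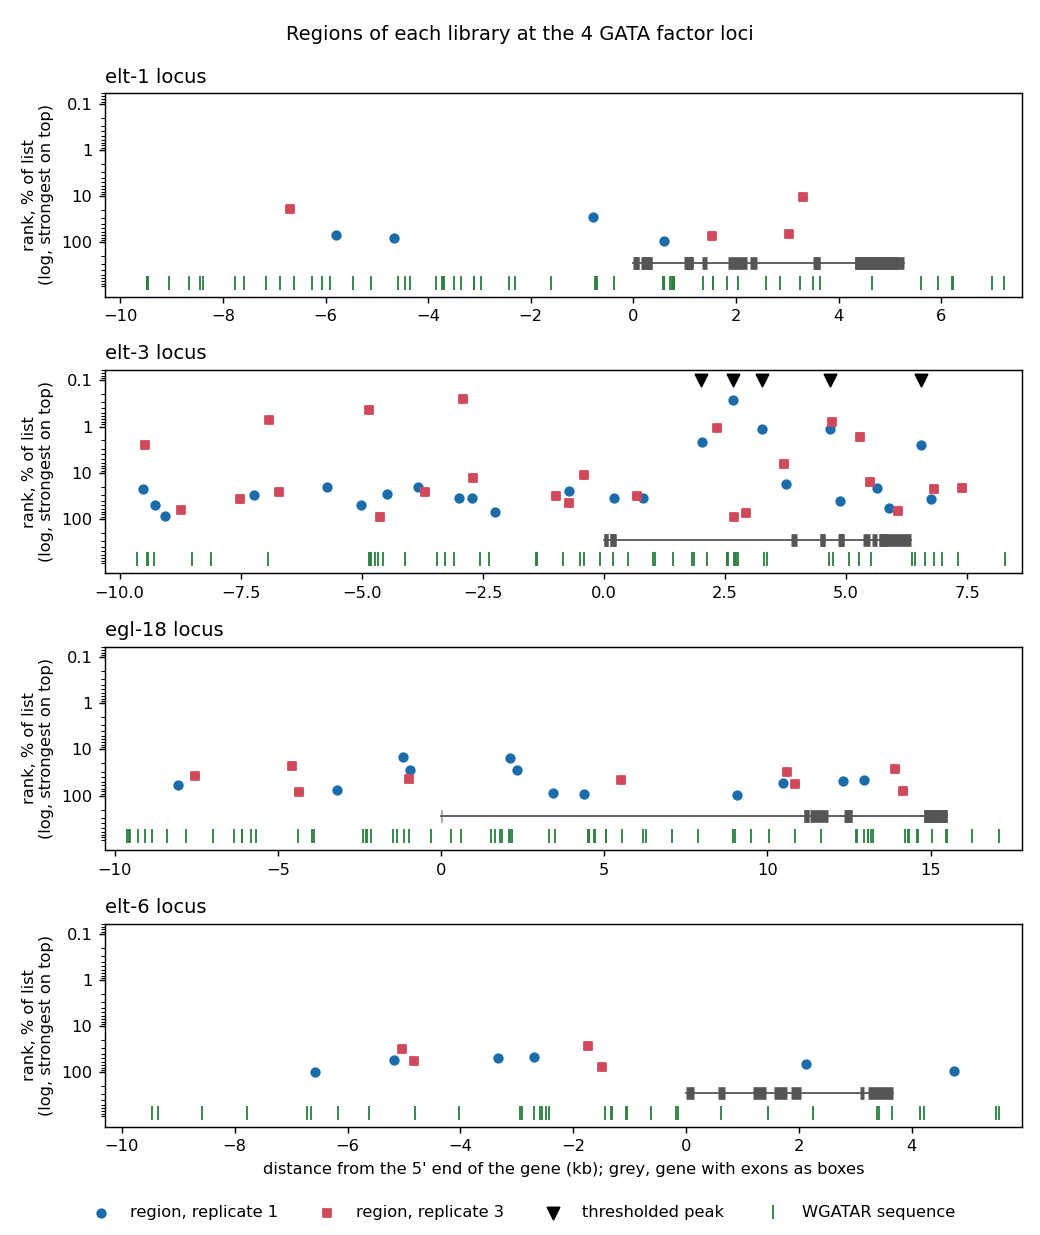
Regions of replicate 1 (blue circles) and replicate 3 (red squares) at each locus, by distance of the summit from the 5' end of the gene (x axis, kb) and by rank as a percentage of the list (y axis, log scale, strongest on top). Black triangles mark the positions of the 5 thresholded peaks, grey boxes exons and green ticks WGATAR sequences. The 5 peaks lie in the elt-3 gene and just past it, replicate 3 has high-ranked regions upstream of elt-3 as well, and no region at egl-18 or elt-6 comes near those ranks.

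The 5 thresholded peaks of elt-3 lay inside the gene or just past it, and none lay upstream of its 5' end. A shorter transcript, K02B9.4a.1, starts inside the gene at +3869 bp. The summits at +2008, +2671 and +3258 bp lay at -1861, -1198 and -611 bp relative to that start. Going along the gene, the peak chrX:13936770-13936971 had its summit 2008 bp into the gene, in an intron of the long transcripts, with a signal of 66.3 and rank 961. It overlapped a replicate 1 region of rank 644 and no region of replicate 3. Its window held no WGATAR site. The strongest peak, chrX:13937369-13937702, had its summit at +2671 bp in the same intron, with a signal of 169.8 and rank 89, and its replicate 1 region ranked 80. Its window held TGATAA on each strand, starting 7 and 32 bases past the summit. In replicate 3 the region centred there, 20 bp from the summit, ranked 23092 of 24854 with a signal of 2.13. The higher-ranked replicate 3 region that touched this peak, rank 265, overlapped it by 7 bp and had its summit 334 bp away, within the non-coding RNA gene K02B9.8. The strongest peak of elt-3 was thus a top-ranked region in replicate 1 and a region near the foot of the list in replicate 3.

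The peak chrX:13938053-13938283 at +3258 bp had a signal of 96.4 and rank 394, replicate 1 rank 340, no replicate 3 overlap and no WGATAR site in its window. The peak chrX:13939375-13939724 at +4676 bp had a signal of 112.3 and rank 269. It is the thresholded peak of elt-3 at which the libraries gave the nearest ranks, 339 in replicate 1 and 202 in replicate 3, with the replicate 3 summit 36 bp away. Its window held 1 TGATAA site, starting 23 bases before the summit, and the summit lay at -176 bp relative to the start of the short transcript K02B9.4d.1. The last peak, chrX:13941256-13941605, lay 215 bp past the 3' end with a signal of 64.3 and rank 1023, replicate 1 rank 742, and no site in its window. Its overlapping replicate 3 region ranked 5545 with the summit 263 bp away. Of the 5 peaks, 3 overlapped a region of replicate 3, near the 58.6% of all nuclear thresholded peaks that did. A replicate 3 summit lay within 100 bp at 2 of the 5, near the 40.1% of the whole list. Both shares were thus near those of the whole list, though regions of replicate 3 covered more of this locus than of the genome. The differences in rank between the libraries were not compared with those over the whole list. In all, 2 of the 5 windows held a WGATAR site, where 34.8% of all nuclear thresholded summits did and 21.0% of flanking windows of equal length, shifted by 500 bp.

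**Figure D3:**
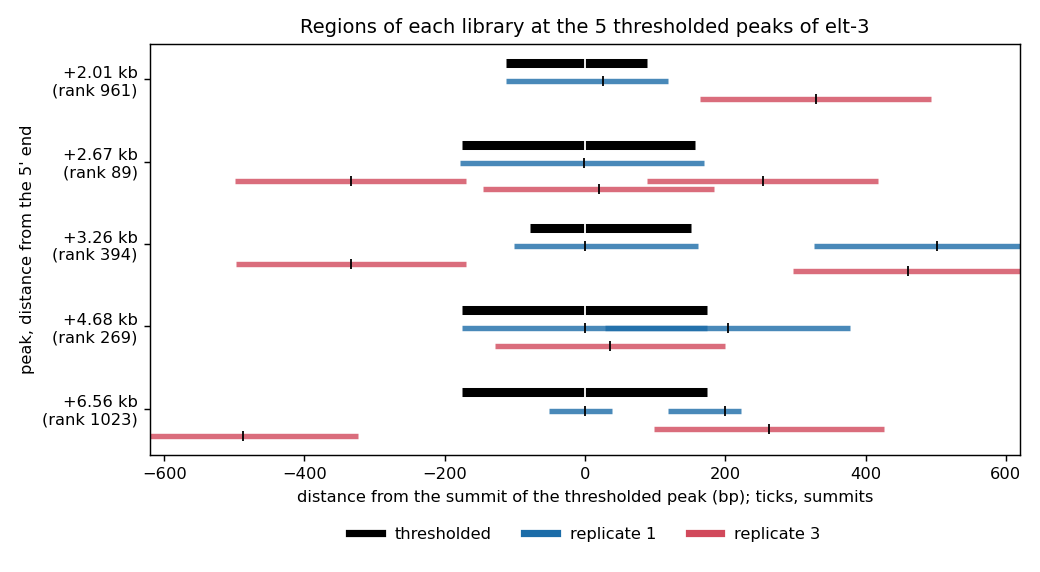
The 5 thresholded peaks of elt-3 (black) with the regions of replicate 1 (blue) and replicate 3 (red) around them, by distance from the thresholded summit (x axis, bp), and each row a peak with its distance from the 5' end and its rank in the thresholded list. Ticks mark summits. Replicate 1 has a summit within 25 bp at each of the 5 peaks, and replicate 3 has 1 within 100 bp at the peaks at +2671 and +4676.

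The 2 libraries placed their strongest regions at elt-3 differently. The 5 of replicate 1 among its 2940 strongest were the 5 thresholded peaks, all with summits within 50 bp. Of the 9 of replicate 3, 5 lay upstream and 4 in the gene body, 2 overlapped a thresholded peak and 1 had its summit within 50 bp of a thresholded summit. The highest of replicate 3 lay at -2907 bp, in a pseudogene (WBGene00010494), with a signal of 14.6 and rank 63, where the pooled region ranked 4144 and the best replicate 1 region 10489. The next lay at -4844 bp between genes, with rank 108 and 3 WGATAR sites in its window. A further region, rank 178, lay in a coding exon of meg-1, a germ-granule gene transcribed away from elt-3 on the - strand. WGATAR sites stood in 6 of the 9 windows of replicate 3 and in 2 of the 5 of replicate 1. Over all nuclear summits of these lists the shares were 21.0% and 23.9%. Those of the 2940 strongest regions of each list were not counted.

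Regions of the 2 lists met more often at elt-3 than elsewhere when any overlap was counted. Of the 24 regions of replicate 1 at elt-3, 18 (75.0%) overlapped a region of replicate 3, against 3 of 12 at egl-18, 1 of 6 at elt-6, 0 of 4 at elt-1 and 26.7% of the whole nuclear list. Regions of replicate 3 covered 39.5% of the elt-3 locus, against 8.04% of the genome. The share that overlaps rises with such coverage, so agreement of the libraries beyond the crowding was not tested. Asking for summits within 100 bp left 8 of 24 (33.3%) at elt-3, 1 of 12 at egl-18 and 0 at elt-1 and elt-6. Over the whole list the share was 11.6%. This share, too, rises with crowding, as replicate 3 had 13.1 summits per 10 kb at elt-3 against 2.48 in the nuclear genome.

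The crowding of candidate regions ran beyond the elt-3 locus. In 5-kb bins counted from the 5' end, each of the 7 bins from -20 to +15 kb held 5 to 8 regions of replicate 3, 41 in all, and 4 to 8 of the pooled list, 45 in all. The 33 bins further out, to 100 kb on each side, held 0 to 4 of replicate 3 with a median of 1. The edges were abrupt in replicate 3, with 1 region in the bin before the stretch and 0 in the bin after it. In replicate 1 the bin before held 0, but the run of bins with at least 4 went on to +25 kb. Over the nuclear genome 1.06% of 5-kb bins held 5 or more regions of replicate 3. With bins fixed on the chromosomes, the longest run of bins with at least 4 regions of replicate 3 in the genome was this one, 7 bins at chrX:13915001-13950000, and the next longest had 5 bins. The same stretch around elt-1, egl-18 and elt-6 held 7, 11 and 7 regions of replicate 3. The limits of the stretch were chosen after the counts had been seen. It takes in meg-2, meg-1 and elt-3 and parts of ekl-5 and alg-1, and the extent of genomic DNA carried by the transgene is not known from the labels, so its part in the count was not tested.

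**Figure D4:**
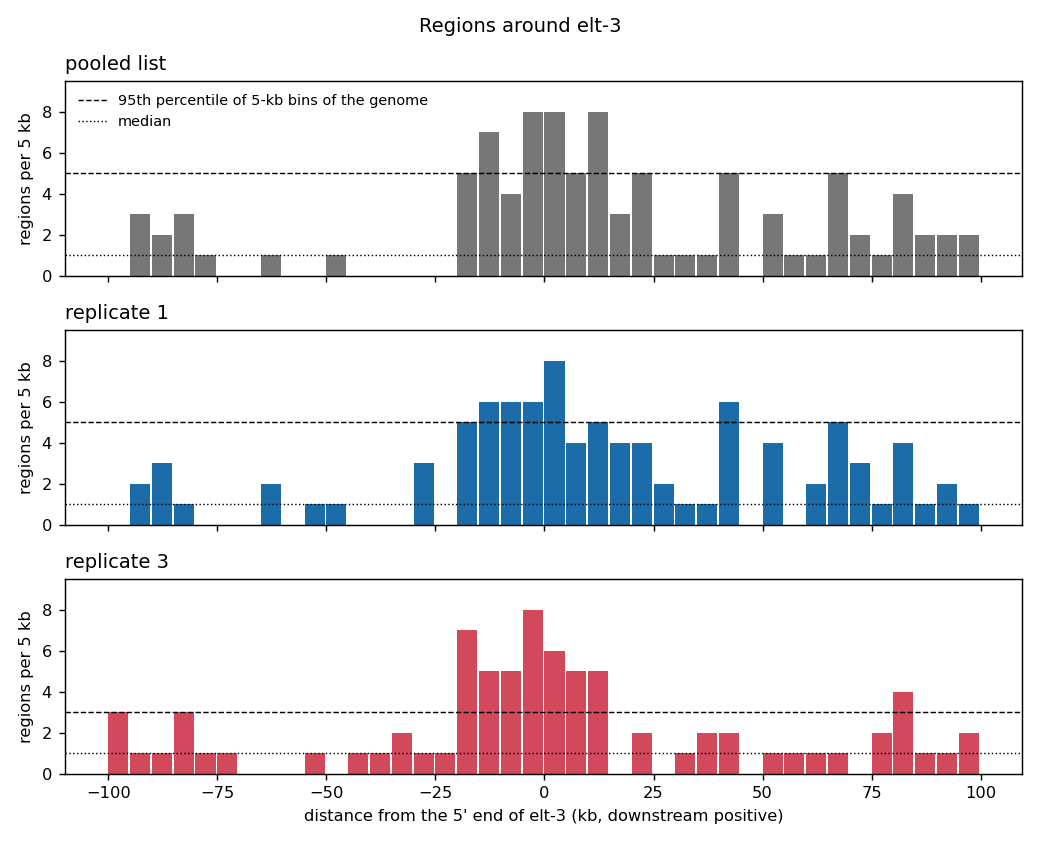
Regions per 5-kb bin (y axis, count) of the pooled list and of each replicate by distance from the 5' end of elt-3 (x axis, kb), with the median and the 95th percentile of all 5-kb bins of the nuclear genome. From -20 to +15 kb every bin of replicate 3 holds 5 or more regions, above the 95th percentile of 3, and the counts outside drop to a median of 1.

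egl-18 had the strongest candidates among the 3 genes without a thresholded peak. The highest lay 1096 bp upstream of the 5' end, chrIV:1901051-1901400, with a signal of 26.1 and rank 4127 in the pooled list, below the lowest thresholded signal of 34.2. Its replicate 1 region ranked 4338 and its replicate 3 region 10857 of 24854, with the replicate 3 summit 103 bp away. It was the pooled region at egl-18 that overlapped a region of each replicate and held a WGATAR site within 50 bp of the summit, a TGATAG on the other strand starting 49 bases before it. The region overlaps the non-coding RNA gene F55A8.6, on the - strand at chrIV:1900987-1901135, and its summit lies outside that gene. The next candidate stood 2156 bp into the gene, with a signal of 24.2 and rank 4488, replicate 1 rank 4653 and no region of replicate 3, and its window held a TGATAA starting 23 bases past the summit. That summit lies in the long intron of F55A8.1a.2, the transcript that begins at the 5' end, while the shorter transcripts begin at chrIV:1913446 and chrIV:1913454.

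The highest region of replicate 3 at egl-18 lay 4581 bp upstream and ranked 5529. A weaker pooled region 10480 bp into the gene, before the start of the short transcripts, overlapped a region of each replicate (pooled rank 12173, replicate 1 15790, replicate 3 7763) without a WGATAR site in its window. Of the 12 pooled regions at egl-18, 6 lay upstream and 6 in introns, and none in coding exons, where 16.6% of the whole pooled list lay. The highest pooled signal was equalled or passed at the loci of 40.6% of coding genes.

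elt-6 had little of its own. All 3 of its pooled regions were weak, with signals of 5.94 to 11.1, and 2 of the 3, at -5175 and -3336 bp, lie in introns of egl-18 within the part that the loci share. The third, at +2134 bp in an elt-6 intron, ranked 29833 of 30000, and its replicate 1 region 19369. The highest region of replicate 1 lay 2689 bp upstream and ranked 13954, that of replicate 3 lay 1738 bp upstream and ranked 6665, and both lie in introns of egl-18. No pooled window held a WGATAR site, although the locus has 35 of them.

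elt-1, the gene that sets epidermal fate, had 6 weak pooled regions with signals of 6.12 to 12.7, and 60.9% of coding genes had a signal at least as high in their loci. The highest stood 780 bp upstream with a TGATAA starting 26 bases past the summit, pooled rank 9944 and replicate 1 rank 8493, and it overlapped no region of replicate 3. A region in an intron at +596 bp held 3 sites in its window, but ranked 26413 with a signal of 6.57. The highest region of replicate 3 was in an intron at +3299 bp, with a signal of 5.64 and rank 2550. This is the region that placed elt-1 among the genes with 1 of the strongest regions of replicate 3, and it overlapped no region of replicate 1. None of the 4 regions of replicate 1 at elt-1 overlapped one of replicate 3.

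The GATA sequence itself was present at all 4 loci at densities that did not follow the regions. There were 61 WGATAR sites at elt-1 (3.53 per kb), 54 at elt-3 (2.94), 72 at egl-18 (2.62) and 35 at elt-6 (2.23), against 2.38 per kb of the nuclear genome. elt-1 had the highest density of sites and no thresholded peak. Pooled regions contained 30 of the 54 sites at elt-3, 13 of the 61 at elt-1, 7 of the 72 at egl-18 and 1 of the 35 at elt-6. These counts depend on how much of a locus the regions cover, in the same order 40.8%, 12.1%, 14.3% and 6.70%. Within 50 bp of the summit, 6 of 25 pooled regions at elt-3 held a site, 3 of 6 at elt-1, 3 of 12 at egl-18 and 0 of 3 at elt-6. Over the whole pooled list the share was 23.3%, with 19.6% in the flanking windows, and the elt-3 share was 24.0%. The libraries differed in this at elt-3, where 4 of 24 summits of replicate 1 (16.7%, whole list 23.9%) and 10 of 24 of replicate 3 (41.7%, whole list 21.0%) held a site. At the other genes replicate 1 gave 2 of 4 at elt-1, 4 of 12 at egl-18 and 1 of 6 at elt-6, and replicate 3 gave 1 of 4, 4 of 9 and 1 of 4.

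At elt-3 most windows with a WGATAR site near the summit held at least 1 of the TGATAA form. All 6 pooled windows with a WGATAR site held TGATAA, as did all 10 such windows of replicate 3, but 2 of 4 of replicate 1. In the whole lists TGATAA was present in 50.5% of pooled, 47.9% of replicate 3 and 50.4% of replicate 1 windows that held a WGATAR site. Of all sites in the elt-3 locus 57.4% were TGATAA, against 44.3% in the nuclear genome, 37.7% at elt-1, 45.8% at egl-18 and 54.3% at elt-6. The pooled regions of elt-3 that overlapped a region of each replicate and held a site had summits at -9384, -4740, -472, +2671, +4676 and +6773 bp, 3 of them upstream. The summit at -472 bp, the nearest to the 5' end, ranked 21471, and its best replicate 3 overlap ranked 2755.

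Among 7 other GATA factor genes of the worm, 1 had a thresholded summit in a locus cut by the same rule, where the share of coding genes is 32.8%. The 7 were elt-2 and elt-7, which act in the intestine, elt-4, and end-1, end-3, med-1 and med-2, which act in the early endoderm and its precursors. The gene with summits was med-1, with summits at -7838 bp (signal 53.2, 3 WGATAR sites in the window) and -4990 bp (signal 78.8). The latter lay 111 bp from the 5' end of T24D3.2 and the former 2959 bp from it, both nearer than to that of med-1. Neither overlapped a region of replicate 3. At elt-2, elt-4 and end-1 the pooled list held no region, and the median pooled density of the 7 was 1.39 per 10 kb, against 2.41 over coding genes. The pooled densities of end-3 (6.02 per 10 kb, signal up to 32.7) and med-1 (5.59) were above the 4.36 of egl-18.

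Among 20 genes that work with these factors in epidermal fate, 11 had a thresholded summit in the locus (32.8% of coding genes did), 9 of them with a peak that overlapped a region of each replicate (21.7%). At lin-26, rnt-1, lit-1, tbx-8 and tbx-9 each such summit lay nearest to the 5' end of another coding gene. These were lir-1, lron-8, cyn-2 and, for tbx-8 and tbx-9, ttr-15. The shares over coding genes count such summits as well. Taking each library by itself, the 2940 strongest of replicate 1 gave 11 of 20, beside 32.6% of coding genes. The 2940 strongest of replicate 3 gave 7 of 20, near the background of 33.0%. The median pooled density of the 20 was 4.87 per 10 kb, between those of egl-18 and elt-3. The highest signals were at sys-1, a beta-catenin of the Wnt asymmetry pathway (177.7, 150 bp from the histone gene his-68), and at egl-27, an MTA-like chromatin factor that acts in seam cells (165.6, with 4 WGATAR sites in the window). They were followed by nhr-23, a nuclear receptor of the molting cycle (78.3), and by the T-box genes tbx-8 and tbx-9, whose loci share a peak (65.4). The egl-27 locus held 9 thresholded summits, above the 5 of elt-3, with a pooled density of 11.6 per 10 kb and a replicate 3 density of 5.62, against 13.6 and 13.1 at elt-3. Of the summits at egl-27, those with signals of 143.7 and 83.4 lay in introns of tbc-6. Those with signals of 165.6 and 44.8 lay in introns of egl-27, but nearer to the 5' end of tbc-6 (5237 and 2970 bp). The highest pooled density of the 20 was 12.0 at blmp-1, and nhr-23 had 11.9 in the pooled list and 9.70 in replicate 3, the highest of the 20 there. nhr-25, a nuclear receptor gene needed for epidermal and seam cell development, had 4 summits with signals up to 61.3.

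The coding genes whose regions per 10 kb in the 4 lists were most like those of a member, by Euclidean distance on log2(1 + regions per 10 kb), were close for elt-1, egl-18 and elt-6 and distant for elt-3. For elt-1 they were mab-9 (distance 0.0338) and snn-1 (0.0571), for egl-18 eat-6 (0.0538) and pitr-1 (0.0603), and for elt-6 gsto-3 (0.0596) and hum-4 (0.109), none with a thresholded summit. For elt-3 the nearest were psf-3 (0.608) and W01A8.6 (0.625), with 3 and 5 thresholded summits and 11 and 14 regions of replicate 3. The distances rest on counts in lists from the same 2 libraries and say nothing of shared control.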

How the data were processed

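The deposited lists are ChIP-seq regions in narrowPeak form, in builds ce10 and ce11. Per the deposited manifest, candidate regions were called for each library and for the pool, with 1 control file common to these calls, and the thresholded list came from those. The sources used here do not name the aligner, the caller or the filters. The deposited signal column gives the strength of each region, and the deposited −log10 column gives −log10 of its q-value, which is 3.86 throughout the thresholded list. Its 2940 regions are the pooled regions of highest signal. The ce10 lists were not used.

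Genes came from Ensembl release 115 and sequence from the RefSeq copy of the same assembly. Loci, overlaps of at least 1 bp, WGATAR sites within 50 bp of summits and in flanks shifted by 500 bp, and 5-kb bins were counted with Python 3.11.15, numpy 2.4.6 and pandas 2.3.3, and drawn with matplotlib 3.10.9. Code was tested on simulated data. Mitochondrial regions were left out of backgrounds. No sample columns were unmapped. The 4 genes and the gene lists were chosen with earlier results of these data known. Genes were named by a rule that takes each member's thresholded peaks, its highest candidate per list, candidates found in each replicate with WGATAR, the 2 most alike genes, and the 4 highest signals of the list of epidermal genes; further regions were chosen after their values were seen. Nothing says whether the libraries came from separate cultures. Alternatives were other loci extents, placement by overlap, the stronger peaks, each replicate alone, stricter overlaps, and other motifs and windows.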

Additional observations from a re-analysis of the deposited data

How the results depend on the processing

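Of the alternatives tried, 69 values kept their reading and 11 moved. Counts were judged by their fold change, and shares by whether they fell in a binomial confidence interval of the main share. That interval is wide at loci with few regions, so a kept reading there says little. At elt-6, GATA alone gave 66.7% against 0% with WGATAR and was counted as kept. The thresholded count of elt-3 stayed at 4 or 5 under other extents, placements and the stronger peaks, became 3 with support in each replicate, and ran from 5 to 9 with each library left out. That of elt-1 ran from 0 to 1, and those of egl-18 and elt-6 were 0 throughout. Candidate regions at elt-6 numbered 3 in the pool and 4 to 6 with a library left out. Replicate overlap by summits within 100 bp fell from 75.0% to 33.3% at elt-3 and from 16.7% to 0% at elt-6. WGATAR in the whole region gave 100% at elt-1 (50% within 50 bp) and 64.0% at elt-3 (24.0%), the wider window by construction; 100 bp to each side gave 48.0% at elt-3. GATA alone, a shorter motif, gave 56.0% at elt-3 and 83.3% at egl-18 (25% with WGATAR). With a library left out, WGATAR ran between 16.7% and 41.7% at elt-3 and between 25% and 50% at elt-1. It ran between 33.3% and 44.4% at egl-18 and between 16.7% and 25% at elt-6, and all of these were counted as kept. Merging overlapping pooled regions, and the choice of the pooled list for the motif counts at all 4 loci, came after seeing the data. The ce10 lists were not run at the loci, as no ce10 annotation was used here. No paired analysis was possible because there is 1 group and no test. Depth is unknown, so a region missing from a list is not shown to be unbound, and the loci of 3 or 6 pooled regions give shares that 1 region can move.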

Other observations

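Outside the elt-3 locus but within the crowded stretch, 3 thresholded peaks lay upstream, with ekl-5 as the coding gene of the nearest 5' end. Their summits stood at -17.4 kb (signal 90.2, rank 470), -16.5 kb (57.8, rank 1248, with 1 WGATAR site) and -14.3 kb (154.5) from the 5' end of elt-3. The last was nearly as strong as the strongest peak in elt-3, and its best overlap in replicate 3 ranked 876. On the other side the nearest was 16.1 kb away in a 5' UTR of alg-1 (56.5, rank 1299).

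The nearest thresholded peaks outside the 3 loci that held none lay at the following distances. From the 5' end of elt-1 the nearest thresholded summits were 79.7 kb upstream (signal 74.7) and 17.3 kb downstream (47.7, near mca-1). From that of egl-18 they were 34.2 kb upstream (36.8) and 130.9 kb downstream (61.9, near cpsf-1), and the same 2 peaks were the nearest to elt-6.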
